A study of Mus musculus with 4 samples.

Results

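The genes described here are those of the Wnt and Notch signalling pathways in mouse liver, chosen by symbol from a table of 56953 gene rows. The choice took every gene whose symbol starts with Wnt or Hes followed by a digit, or with Fzd, Rspo, Lgr, Dkk, Sfrp, Notch, Jag, Dll or Hey, plus 14 named genes such as Ctnnb1, Axin2, Lrp5 and Rbpj. The rule uses symbols and no measured value, and it found 79 genes, of which 57 belong to the Wnt side and 19 to the Notch side. The other 3 match by letters alone and are the jagunal gene Jagn1, the Dickkopf-like gene Dkkl1 and the antisense RNA Rspo4os.

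Transcripts were counted in liver libraries from mice 2 months old on a normal diet. The deletion group is 2 libraries from mice with loxP-flanked Ubc13 alleles and an albumin-driven Cre (Ubc13 flox/flox Alb positive). Cre under this promoter acts in hepatocytes and their developing precursors, so other liver cells such as endothelium keep the gene. The control group is 2 libraries from mice with the same flanked alleles and no Cre (Ubc13 flox/flox Alb negative), which the labels call WT. Ubc13, the product of Ube2n, builds lysine-63-linked ubiquitin chains, and the series asks how its loss bears on fatty liver disease. The labels name liver as the tissue but speak of primary hepatocyte RNA in the library protocol. They do not say that the replicates are separate animals, so p-values reflect the spread among these samples only. The Y-linked gene Ddx3y had 0 and 719 counts in deletion replicates 1 and 2, so this pair was not made from the same RNA. The control pair differed beyond sampling noise by more than this pair did (chi-square per degree of freedom 38.9 against 25.3). Whether the spread of the control pair is technical was not tested.

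Wnt proteins are secreted ligands that bind a Frizzled receptor and a co-receptor, LRP5 or LRP6. Binding stops the destruction complex of APC, AXIN and kinases from degrading beta-catenin, which then works with TCF/LEF factors on target genes. In the liver, endothelial cells around the central vein supply Wnt ligands and R-spondin 3, and the nearby hepatocytes make glutamine synthetase (Glul) and Cyp2e1 under beta-catenin. Notch receptors are cut after they meet a Jagged or Delta-like ligand on a neighbouring cell, and the freed part acts with RBPJ on Hes and Hey genes. Notch is known for guiding liver progenitors towards the bile duct fate.

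Total counts were 16927947 and 17114003 in the deletion libraries and 17800138 and 16270424 in the control libraries. Ube2n fell 7.27-fold, with 107 and 116 counts in the deletion libraries against 669 and 654 in the controls (edgeR adjusted p = 0.00188). Xist, made by female cells, had 9590 and 3896 counts in deletion replicates 1 and 2, against 9 and 2 in the controls. Counts of Ddx3y, Uty, Kdm5d and Eif2s3y, all on the Y chromosome, were 0 in deletion replicate 1 and 206 to 719 in deletion replicate 2, against 216 to 1027 in the controls. The groups therefore differed in sex-linked transcripts as well as in genotype, and the part of sex in the other differences was not tested. Control replicate 1 stood apart in bile duct keratins: Krt19 had 53 and 77 counts in the deletion libraries, against 635 and 47 in control replicates 1 and 2.

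Among the Wnt and Notch genes, the Frizzled receptor gene Fzd8 was the only one called between deletion and control livers. Of the 79 genes, 11 had 0 counts in all 4 libraries, 23 had counts but were under the filter on low counts, and 45 were tested. At an adjusted p under 0.05 in the edgeR quasi-likelihood test, 1 of the 45 fell, 0 rose and 44 were not called. Over all 14600 genes tested, 959 were called, or 6.57%, with 644 higher (4.41%) and 315 lower (2.16%). The share among the Wnt and Notch genes was 2.22%. At an unadjusted p under 0.05, 2 of the 45 were higher and 2 lower, a share of 8.89% against 24.4% of all tested genes. DESeq2 and limma-voom each called 0 of the 45 higher and 1 lower, where DESeq2 called 6.8% of all genes higher and 4.48% lower and limma-voom 4.12% and 2.14%. The count was also 1 without deletion replicate 1, without deletion replicate 2 and without control replicate 1. It was 3 with library sizes alone (12.1% of all genes), 5 with no filter on low counts (10.8%) and 5 without control replicate 2 (12.3%). The calls added in those fits were of Wnt7a, Notch2, Nkd1, Hes1 and Rnf43, each described with its own values.

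**Figure D1:**
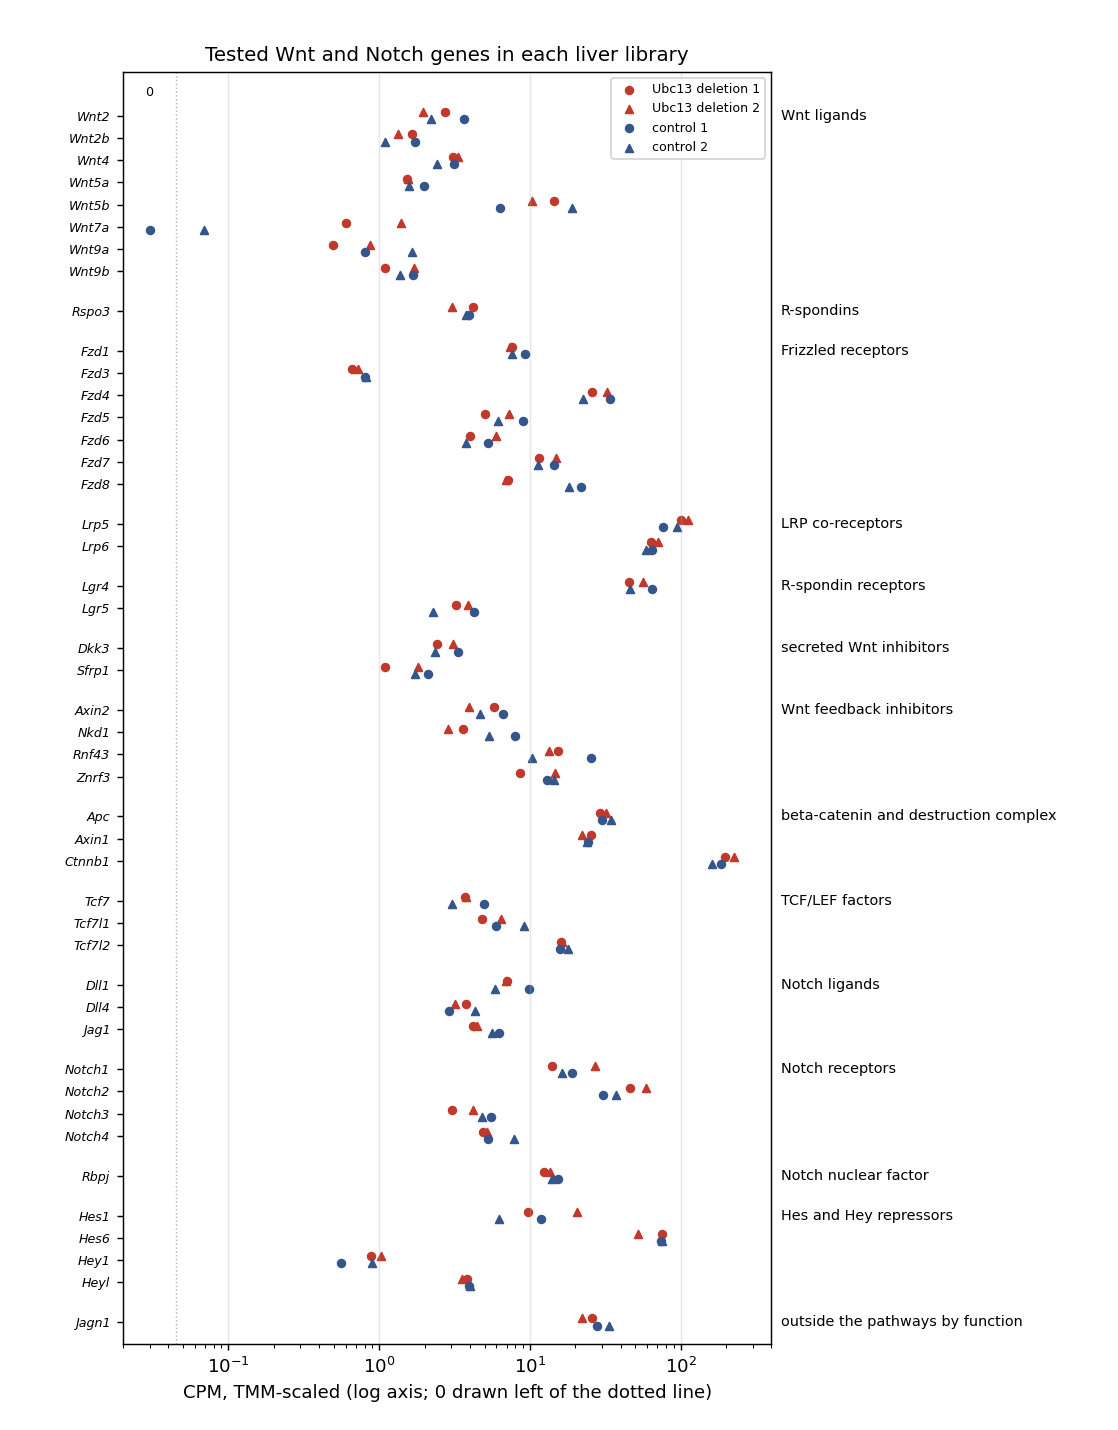
Counts per 1000000 counts of the library (CPM, scaled by TMM, log axis) of the 45 tested Wnt and Notch genes in each library, grouped by role. Deletion libraries are red, control libraries blue, and circles and triangles are replicates 1 and 2. For most genes the red and blue points mix, while Fzd8 sits at 7.20 and 6.90 CPM in the deletion libraries against 21.8 and 18.1 CPM in the controls.

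Fold changes of the tested genes lay close to 0. The median log2 fold change, deletion over control, was -0.10, beside -0.00 over all genes tested, and 14 of the 45 values were positive (31.1%, against 49.6% of all genes). The sign of single values near 0 hangs on the scaling. TMM scaling assumes that most genes keep their level. With library sizes alone the median of the 45 was 0.19 and that of all genes 0.29. Such a change of scaling shifts all genes by about the same amount. The gap between the medians therefore had to stay alike and is no check on it. The groups were apart, with no overlap of their CPM values, for 14 of the 45 genes (31.1%), against 56% of all tested genes. The 95% interval of the fold change lay within 2-fold in either direction for 23 of the 45, and for the other 22 it reached 2-fold or more. Wnt7a passed the filter through the deletion libraries alone.

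**Figure D2:**
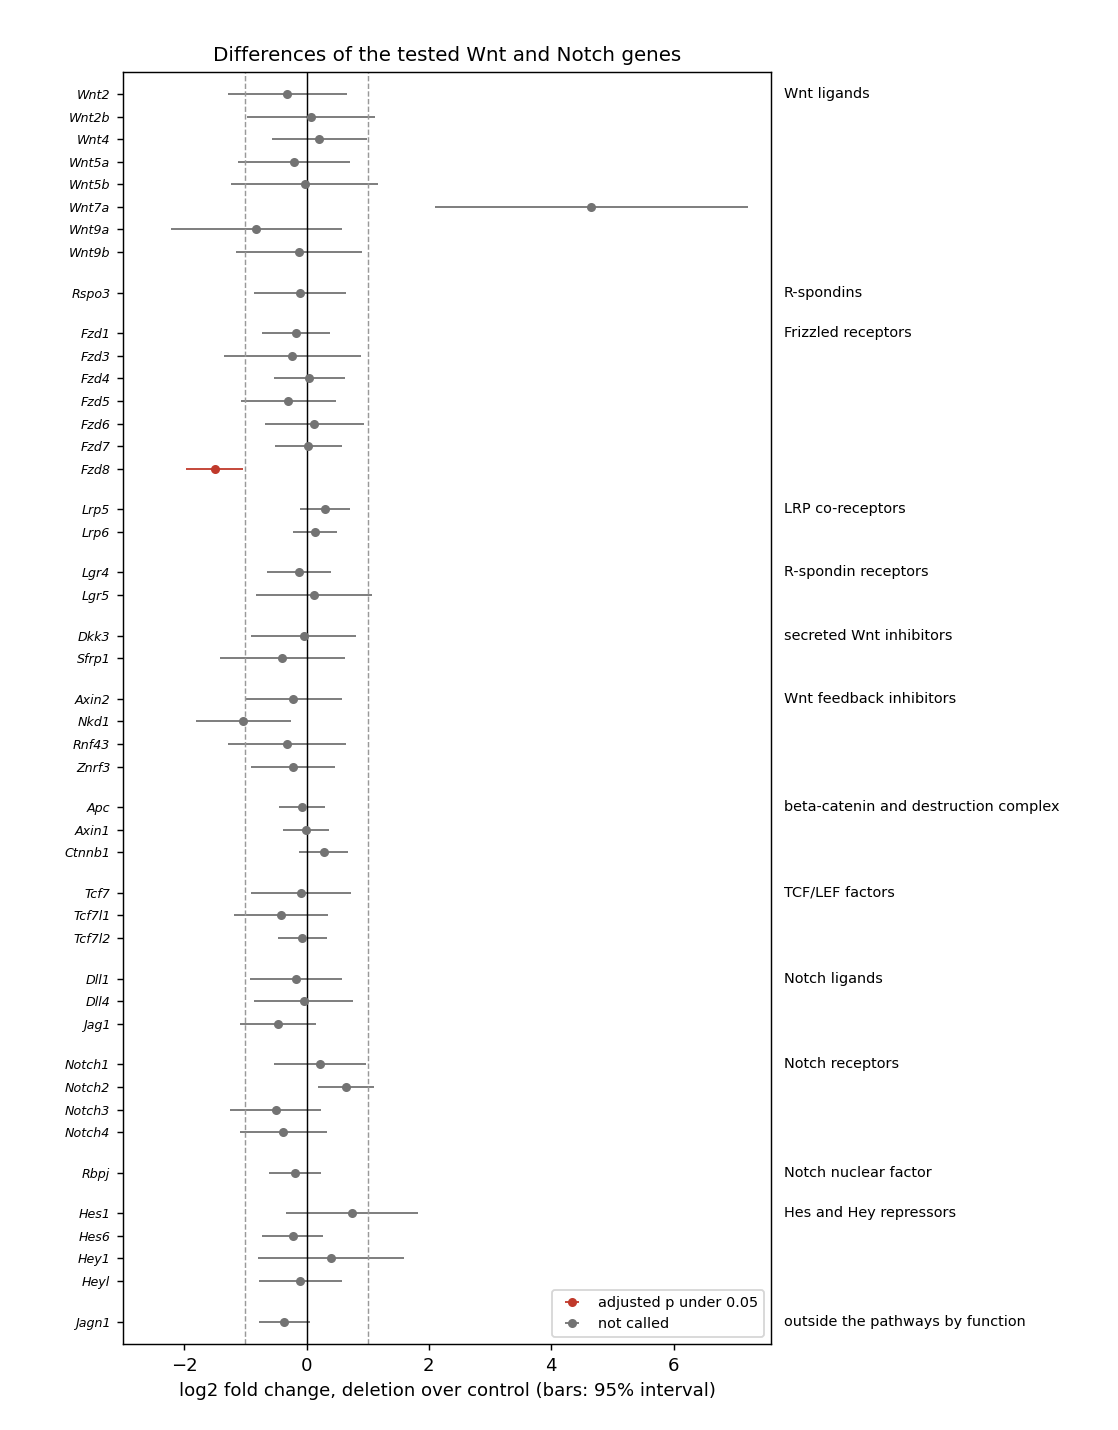
Log2 fold change, deletion over control, of the 45 tested Wnt and Notch genes, with 95% intervals from the edgeR fit. Dashed lines mark 2-fold. Fzd8 (red, -1.50) is the gene called, the interval of Wnt7a (4.66) is the widest, and most other intervals cross 0.

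Among the Wnt ligands, 13 of 19 genes had any counts and 8 were tested, and none was called (unadjusted p under 0.05 in 1, DESeq2 calls 0). Wnt7a had the largest difference. It had 11 and 27 counts in the deletion libraries, against 0 and 1 in the controls, or 0.605 and 1.39 CPM against 0 and 0.0687 CPM. Both deletion libraries were above both controls, but all 4 levels were low. The ratio of scaled counts was 31.1, with a counting interval of 5.25 to 1259 that covers counting error only. The edgeR adjusted p was 0.0568, just over the threshold, and the alternatives spanned 0.00049 to 0.25. Wnt7a was called with library sizes alone (0.0375), without a filter (0.00049) and without control replicate 2 (0.0212).

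Wnt7a encodes a ligand best known from limb, brain and uterus development. It lies on the minus strand of chromosome 6 from 91363981 to 91411363 (GRCm38, GENCODE M21). The 250 bases before its RefSeq start, chr6:91411354-91411603, are shown because its unadjusted p in the edgeR test was under 0.05. GC boxes (GGGCGG on either strand, a site of Sp1-type factors) are in capitals.
Wnt7a: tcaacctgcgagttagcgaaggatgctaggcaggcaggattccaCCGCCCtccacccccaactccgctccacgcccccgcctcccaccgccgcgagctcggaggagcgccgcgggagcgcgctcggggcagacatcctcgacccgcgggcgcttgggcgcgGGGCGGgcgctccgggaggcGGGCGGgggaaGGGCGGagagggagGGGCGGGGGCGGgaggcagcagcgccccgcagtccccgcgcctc
The window holds 6 GC boxes and is 77.6% G and C. GC boxes occur in 32.7% of all 32851 RefSeq promoter windows of this length and in 61.2% of the 67 windows of the Wnt and Notch genes, which cover 53 of the 79 genes. Neither the RBPJ core TGGGAA nor the TCF core CTTTGA occurs in it on either strand, where 21.6% and 13.8% of all windows hold one.

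The liver's own Wnt supply gave no call. Wnt2, made by sinusoidal and central vein endothelium, had 2.75 and 1.96 CPM in the deletion libraries against 3.64 and 2.20 CPM in the controls, and the groups overlapped. Wnt9b, another ligand of this endothelium, had 1.10 and 1.70 CPM against 1.67 and 1.37 CPM. Rspo3, the R-spondin that keeps the pericentral zone, had 4.18 and 3.04 CPM in the deletion libraries against 3.95 and 3.78 CPM in the controls (log2 fold change -0.10 ± 0.31 (SE), 95% interval -0.85 to 0.65, edgeR adjusted p = 0.883). Intervals of Wnt2 (-1.29 to 0.66) and Wnt9b (-1.15 to 0.91) were wider. The 12 endothelial markers summed to 292 and 293 CPM in the deletion libraries against 332 and 368 CPM in the controls. None of the 12 was called by edgeR (2 were lower at an unadjusted p under 0.05, and DESeq2 called 1 lower), and their median was -0.26 (0.04 with library sizes alone). The part of endothelial content in the ligand values was not tested.

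The other tested ligands are Wnt2b, Wnt4, Wnt5a, Wnt5b and Wnt9a, with log2 fold changes from -0.82 (Wnt9a) to 0.21 (Wnt4). Wnt5b, a ligand of beta-catenin-independent signalling, showed the widest gap between replicates, with 14.5 and 10.3 CPM in the deletion libraries against 6.29 and 19.2 CPM in the controls. The controls differed 3.05-fold for it and enclosed both deletion values. Wnt5b overlaps the coding gene Fbxl14 on the other strand, and the strand setting of the counting is not given in the sources used here, so its counts are uncertain. Of the ligands under the filter, Wnt11 had 2 and 0 counts in the deletion libraries against 9 and 3 in the controls, and Wnt7b 2 and 7 against 10 and 1. Wnt1, Wnt3, Wnt3a, Wnt8a, Wnt8b and Wnt10b had 0 counts in every library, where 3 counts correspond to 0.169 to 0.184 CPM of the unscaled totals. Rspo1 had 7 and 7 counts in the deletion libraries against 15 and 5 in the controls, and Rspo2 and Rspo4 had 0 throughout.

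Among the Frizzled receptors, which are the seven-pass membrane proteins that bind Wnts, Fzd8 fell and the other 6 tested genes were not called. Fzd8 had 131 and 134 counts in the deletion libraries, against 354 and 264 in the controls. On the CPM scale it averaged 7.05 ± 0.21 in the deletion libraries and 20.0 ± 2.6 in the controls (SD, n = 2 each). The deletion libraries nearly coincided and both lay well below the controls. The log2 fold change was -1.50 ± 0.19 (95% interval -1.97 to -1.04), a 2.84-fold fall (edgeR adjusted p = 0.0123), and it was seen in both deletion libraries. In RNA taken from many cells together, fewer cells of a type and less RNA per cell cannot be told apart.

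Fzd8 (ENSMUSG00000036904, chromosome 18) kept its call under every alternative run, with adjusted p from 2.46e-08 to 0.0478 and log2 fold changes from -1.63 to -1.21. Without deletion replicate 1, which had no Y-linked counts, the log2 fold change was -1.54, with 3896 Xist counts still in deletion replicate 2. Without deletion replicate 2 it was -1.48 (adjusted p = 0.0478), close to the threshold. Without control replicate 1, the library with more keratin counts, it was -1.36 (adjusted p = 0.00676).

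Fzd4 and Fzd7 differed by less than the spread between replicates. Fzd4, a receptor with a known role in blood vessels, had 25.8 and 32.6 CPM in the deletion libraries against 33.9 and 22.5 CPM in the controls (log2 fold change 0.05, 95% interval -0.53 to 0.63). Fzd7 had 11.5 and 14.9 CPM against 14.6 and 11.3 CPM (0.03, -0.52 to 0.58). Fzd1 (-0.17) and Fzd5 (-0.30) also overlapped between groups. Fzd6 was at 0.13 and Fzd3, with 12 to 14 counts a library, at -0.23. Fzd2 had 2 and 5 counts in the deletion libraries against 11 and 0 in the controls, and Fzd9 and Fzd10 had 3 and 2 counts in all.

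The co-receptor genes are well covered, and their intervals are narrow. Lrp5 had 101 and 112 CPM in the deletion libraries against 76.9 and 94.6 CPM in the controls, so that the groups were apart (log2 fold change 0.31 ± 0.17, edgeR adjusted p = 0.321). Lrp6 had 63.9 and 71.3 CPM against 64.2 and 58.5 CPM (0.14 ± 0.15, interval -0.23 to 0.51). The intervals leave room for a rise of Lrp5 up to 0.72 on the log2 scale and of Lrp6 up to 0.51. Among the receptors of R-spondins, Lgr4, which is broadly made by hepatocytes, had 45.5 and 56.5 CPM against 64.5 and 46.4 CPM. Lgr5, a pericentral target, had 3.24 and 3.91 CPM against 4.26 and 2.27 CPM (0.13 ± 0.39, interval -0.82 to 1.07). The coding gene A930009A15Rik overlaps Lgr5 on the other strand, so its counts are uncertain. For Lgr4 and Lgr5 the controls enclosed the deletion values, apart from the lower Lgr4 value, which lay just under them.

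Few secreted inhibitors were counted. Some Dkk genes, such as Dkk1, encode proteins that block LRP5 and LRP6, an action not established for Dkk3. Sfrp genes encode decoys that bind Wnt. Dkk3 had 2.42 and 3.09 CPM in the deletion libraries against 3.33 and 2.34 CPM in the controls, and Sfrp1 1.10 and 1.80 CPM against 2.10 and 1.72 CPM, neither called. Dkk2 had 0 and 3 counts in the deletion libraries against 12 and 1 in the controls, a ratio of scaled counts of 0.189 with a counting interval of 0.0345 to 0.687. Of its 13 control counts, 12 came from control replicate 1, so the ratio rests on that library. Sfrp4 had 6 and 4 counts against 2 and 2, and Dkk1 had 0.

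The feedback inhibitors Axin2, Nkd1, Rnf43 and Znrf3 are themselves induced by beta-catenin, and none of the 4 was called (1 was lower at an unadjusted p under 0.05, and DESeq2 called 0). Nkd1, which binds Dishevelled, had 3.63 and 2.88 CPM in the deletion libraries against 7.96 and 5.36 CPM in the controls. Both deletion values lay below both controls. Its log2 fold change was -1.03 ± 0.32 (95% interval -1.81 to -0.26, edgeR adjusted p = 0.118), and it was called without a filter (0.022) and without control replicate 2 (0.0437). Axin2, the usual readout of the pathway, had 5.77 and 3.96 CPM against 6.60 and 4.67 CPM, with overlapping groups (-0.21 ± 0.33, interval -1.01 to 0.58). Rnf43, a ligase that removes Frizzled from the membrane, had 15.4 and 13.4 CPM against 25.5 and 10.4 CPM. The controls of Rnf43 differed 2.46-fold, and its value turned from -0.82 without control replicate 2 (adjusted p = 0.0326) to 0.48 without control replicate 1. Znrf3, the related ligase, had 8.63 and 14.8 CPM against 12.9 and 14.4 CPM.

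Inside the cell, the genes of beta-catenin and its destruction complex were among the most narrowly bounded. Ctnnb1, the gene of beta-catenin, had 197 and 226 CPM in the deletion libraries against 186 and 162 CPM in the controls. It overlaps the coding gene Ulk4, so its counts are uncertain, as for Wnt5b. The groups were apart, but the log2 fold change of 0.28 ± 0.16 was not called (95% interval -0.12 to 0.68, edgeR adjusted p = 0.351). Apc (-0.07, interval -0.45 to 0.30) and Axin1 (-0.01, -0.38 to 0.36), the scaffolds of the complex, were close to 0. Of the TCF/LEF factors, Tcf7l2, the main one in hepatocytes, had 16.0 and 16.2 CPM against 15.8 and 17.9 CPM (-0.07, interval -0.46 to 0.33). Tcf7l1 (-0.41) and Tcf7 (-0.09) were not called either, and Lef1, best known from lymphocytes, had 1 and 9 counts in the deletion libraries against 2 and 3 in the controls. The 13 lymphocyte markers summed to 14.0 and 9.52 CPM in the deletion libraries against 6.48 and 9.82 CPM in the controls. Of the 10 tested, 0 were called (1 higher at an unadjusted p under 0.05, 0 with DESeq2), and their part in the Tcf7 and Lef1 values was not tested.

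Other Wnt pathway genes, from a list of 56 that the naming rule does not cover, gave 1 call among 48 tested. Of all tested genes, 6.57% were called. Wif1, a secreted decoy that binds Wnt, rose to 24 and 15 counts in the deletion libraries, against 1 and 0 in the controls (edgeR adjusted p = 0.041, ratio of scaled counts 31.9, counting interval 5.40 to 1291). Wif1 passed the filter through the deletion libraries alone, so a tested gene of this kind had to differ. Its levels were low, at 1.32 and 0.772 CPM against 0.0617 and 0 CPM. It lost its call without deletion replicate 1 (0.14), without deletion replicate 2 (0.0915) and with a replicate block (0.081), and it was not among the genes tested at 1 CPM or more in 2 libraries. Of the remaining 47, 3 were higher and 3 lower at an unadjusted p under 0.05, and the list had a median of 0.06. Without control replicate 2, 4 of the 48 were called, 3 higher and 1 lower. Genes that carry Wnts out of the cell were not called: Wls, the carrier, had 5.66 and 6.07 CPM against 6.54 and 4.67 CPM, and Porcn, which attaches the Wnt lipid, 1.65 and 3.65 CPM against 3.76 and 7.28 CPM.

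**Figure D3:**
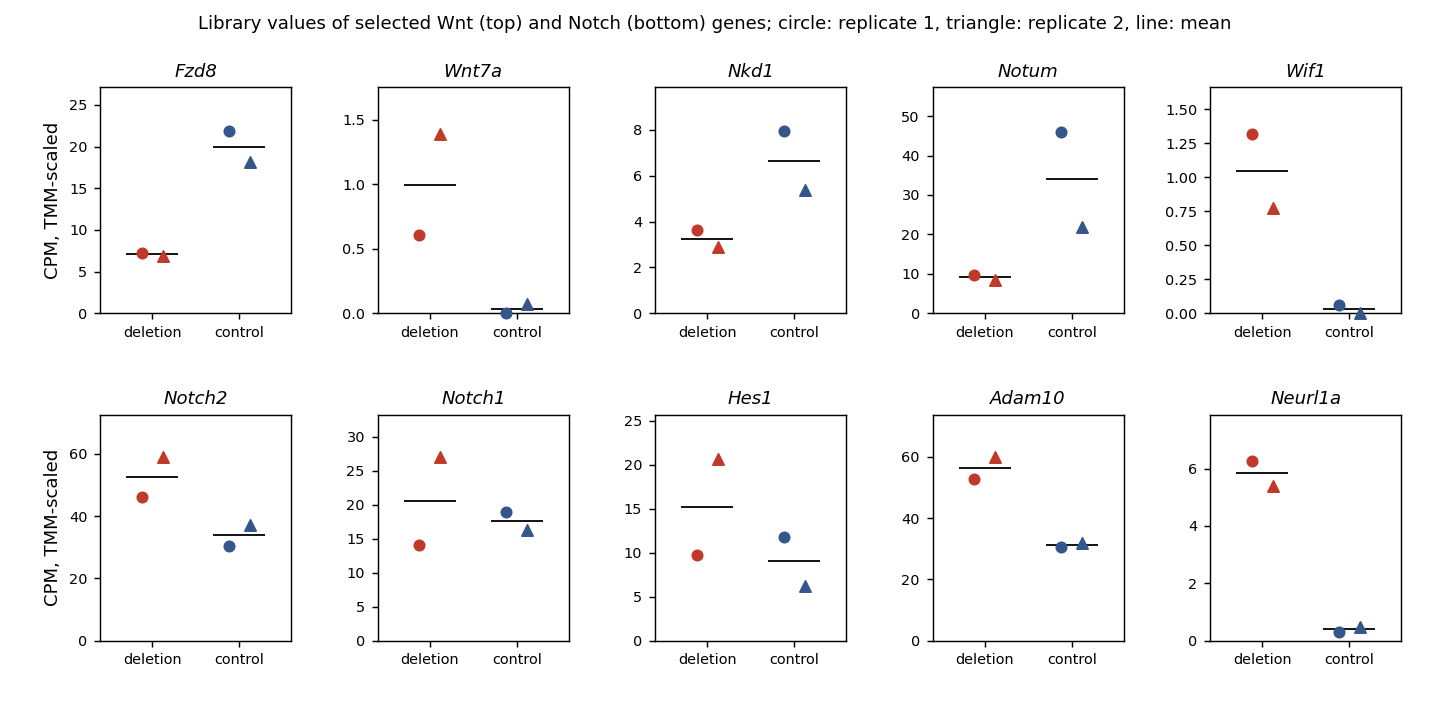
CPM values of 10 Wnt (top row) and Notch (bottom row) genes, picked after their values were seen, with each panel's axis starting at 0. Circles and triangles are replicates 1 and 2, and lines are means of 2 libraries. Fzd8, Nkd1 and Notum sit lower and Wnt7a, Wif1, Notch2, Adam10 and Neurl1a higher in the deletion libraries, while the deletion values of Notch1 lie on both sides of the controls and those of Hes1 overlap them.

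Several targets of beta-catenin in pericentral hepatocytes fell. Of 17 such genes, all tested, 5 fell and 1 rose (DESeq2 called 9 lower and 1 higher). Of all tested genes, edgeR called 2.16% lower and 4.41% higher, and DESeq2 4.48% and 6.8%. The median log2 fold change of the 17 was -0.96, or -0.69 with library sizes alone. Cyp2e1, an ethanol-oxidizing enzyme, fell to 2265 and 1266 CPM in the deletion libraries, against 7295 and 8041 CPM in the controls (log2 fold change -2.12 ± 0.33, edgeR adjusted p = 0.0212). Nr1i3, the nuclear receptor CAR, fell 4.94-fold (-2.30 ± 0.19, adjusted p = 0.00465). Notum, an enzyme that inactivates Wnt by removing its lipid, fell to 9.67 and 8.54 CPM, against 45.9 and 22.0 CPM (-1.90 ± 0.35, adjusted p = 0.0337). Rgn fell 2.98-fold and Cyp27a1 2.09-fold, and Slc13a3, a dicarboxylate transporter, rose 3.84-fold (adjusted p = 0.0499).

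The best known pericentral marker was not called. Glul had 682 and 447 CPM in the deletion libraries against 1013 and 1101 CPM in the controls, with the groups apart (-0.90 ± 0.24, edgeR adjusted p = 0.0847, alternatives 0.00033 to 0.28, called by DESeq2 at 0.00561). Cyp1a2 had 735 and 467 CPM against 1212 and 888 CPM (-0.80 ± 0.28, adjusted p = 0.15). Of the 17 pericentral genes, 6 were called in all, against 4 without deletion replicate 2, 11 without control replicate 2 and 12 without a filter. Without deletion replicate 2, Notum (0.108) and Cyp27a1 (0.0889) lost their calls, and Slc13a3 lost its own without deletion replicate 1 (0.0631). Slc13a3 also lost it with RLE scaling (0.05003), limma-voom (0.0538) and a replicate block (0.113). Notum lost its call without deletion replicate 1 (0.0686) and with limma-voom (0.0533) as well.

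Some genes of the opposite, periportal zone fell too. Of 14 periportal genes, 5 fell and 1 rose (2.16% and 4.41% of all tested genes did), with a median of -0.86 (-0.57 with library sizes alone). They include Etnppl (-2.33), Hal (-2.22), Sds (-1.46), Cyp2f2 (-1.31) and Pck1 (-0.98) on the side that fell, and Hsd17b13 (0.84), which rose. Without deletion replicate 2, 3 of the 14 were called, all lower. Of 10 general hepatocyte markers, which share Cps1 with the periportal list, all 10 had a negative log2 fold change, and the median was -0.72. The edgeR test called 1 of these markers lower (Ttr, -1.59) and DESeq2 7, against 2.16% and 4.48% of all tested genes. Their values ran from -1.59 (Ttr) to -0.14 (Apob), and Fgb (-0.17) and Hnf4a (-0.21) were also near 0. Their summed level was 68516 and 65127 CPM in the deletion libraries, against 155115 and 153280 CPM in the controls. Most of it was albumin (Alb), with 45310 and 42886 CPM in the deletion libraries against 119049 and 114960 CPM in the controls. The part of hepatocyte content in the pericentral values was not tested.

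**Figure D4:**
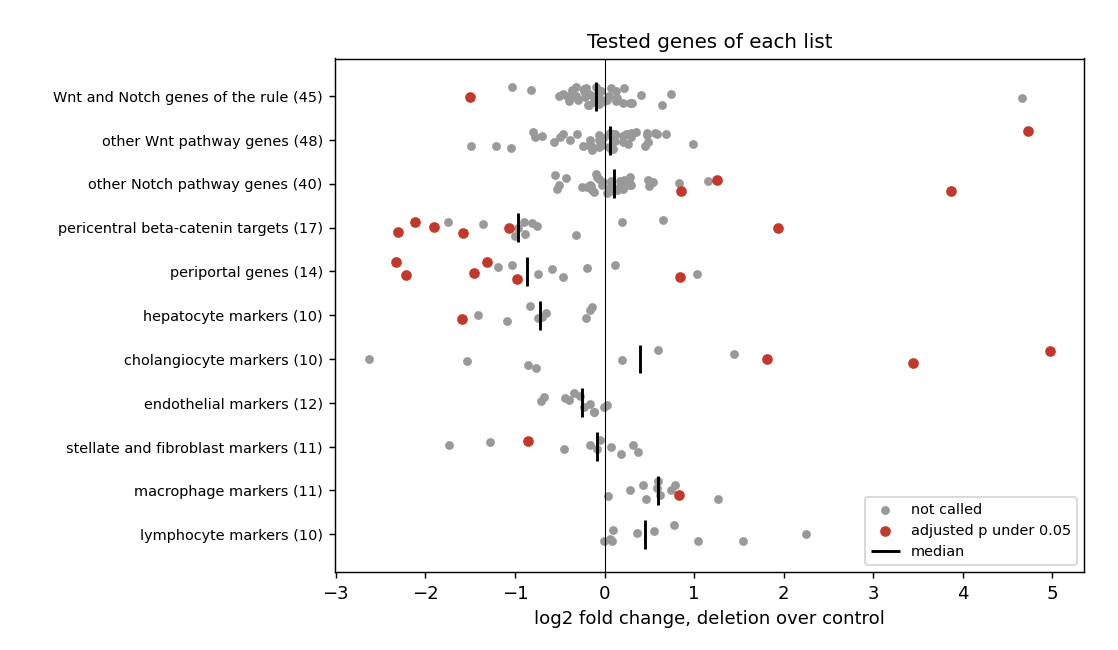
Log2 fold change, deletion over control, of the tested genes of each list, with the number tested in brackets. Each point is a gene (red where the adjusted p was under 0.05), and black bars are medians. The Wnt and Notch genes gather near 0 (median -0.10), while pericentral (-0.96) and periportal (-0.86) genes lie to the left.

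On the Notch side, 12 of 19 genes were tested and none was called (1 was higher at an unadjusted p under 0.05, and DESeq2 called 0). Among the ligands, Jag1, the ligand tied to bile duct formation, had 4.18 and 4.43 CPM in the deletion libraries against 6.23 and 5.63 CPM in the controls. The groups were apart (-0.46 ± 0.26, edgeR adjusted p = 0.33). Dll4, the endothelial ligand, had 3.79 and 3.19 CPM against 2.90 and 4.33 CPM, and Dll1 7.09 and 6.90 CPM against 9.93 and 5.84 CPM, so both overlapped. Jag2 had 15 and 8 counts in the deletion libraries against 8 and 2 in the controls and was under the filter.

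Of the 4 Notch receptors, Notch2 came nearest to the threshold. Notch2 is the receptor through which biliary fate is set in mouse liver. It had 841 and 1146 counts in the deletion libraries, against 494 and 539 in the controls, or 46.2 and 59.0 CPM against 30.5 and 37.0 CPM. Both deletion libraries were above both controls. The log2 fold change was 0.64 ± 0.19 (95% interval 0.18 to 1.10, edgeR adjusted p = 0.106), and the alternatives ran from 0.0142 to 0.418. It was called with library sizes alone (0.0377), without a filter and without control replicate 2 (0.0479).

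Notch2 lies on the plus strand of chromosome 3 from 98013527 to 98150361. The 250 bases before its RefSeq start, chr3:98013288-98013537, are shown because its unadjusted p in the edgeR test was under 0.05. GC boxes are in capitals.
Notch2: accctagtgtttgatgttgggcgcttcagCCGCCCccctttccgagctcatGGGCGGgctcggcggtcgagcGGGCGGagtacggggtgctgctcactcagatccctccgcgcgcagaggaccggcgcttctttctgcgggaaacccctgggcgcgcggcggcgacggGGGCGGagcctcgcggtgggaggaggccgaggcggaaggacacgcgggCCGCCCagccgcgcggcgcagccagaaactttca
The window holds 5 GC boxes and is 72% G and C. The RBPJ and TCF cores do not occur in these letters, and 14.9% and 7.46% of the 67 windows of the Wnt and Notch genes hold one.

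Notch1 split the deletion group. Its level was 14.1 and 27.1 CPM in deletion replicates 1 and 2, against 19.0 and 16.4 CPM in the controls, so that 1 deletion library lay below and the other above both controls (0.22 ± 0.31, interval -0.54 to 0.98). Its log2 fold change was -0.33 without deletion replicate 2 and 0.60 without deletion replicate 1. Notch3, a receptor of vessel wall cells, had 3.02 and 4.22 CPM against 5.49 and 4.81 CPM (-0.51 ± 0.30). Notch4, an endothelial receptor, had 4.89 and 5.20 CPM against 5.31 and 7.83 CPM (-0.38 ± 0.29). For Notch3 and Notch4 the groups were apart by a small margin and neither was called. Rbpj, the DNA-binding partner of all 4 receptors, had 12.4 and 13.6 CPM against 15.4 and 14.1 CPM (-0.19, interval -0.61 to 0.24).

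The Hes and Hey genes gave no common direction. Hes1, the main Hes repressor downstream of Notch, had 9.73 and 20.7 CPM in deletion replicates 1 and 2, against 11.8 and 6.25 CPM in the controls. As for Notch1, deletion replicate 2 held the highest value, and the groups overlapped. Its log2 fold change of 0.75 ± 0.44 was not called (95% interval -0.33 to 1.82, edgeR adjusted p = 0.36) and fell to 0.10 without deletion replicate 2. With no filter on low counts, Hes1 was called (0.75, edgeR adjusted p = 0.0227). Heyl had 3.85 and 3.55 CPM against 3.95 and 3.98 CPM, and Hey1 0.879 and 1.03 CPM against 0.555 and 0.893 CPM. Hes6, a family member that counteracts Hes1, had 74.8 and 52.2 CPM against 73.6 and 75.2 CPM (-0.23 ± 0.20). Hes7 and Hey2 had 15 counts each over the 4 libraries, and Hes2, Hes3 and Hes5 had 1, 0 and 1.

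Among 44 other Notch pathway genes, of which 40 were tested, 3 rose and 0 fell (4 and 3 at an unadjusted p under 0.05, and 3 and 0 with DESeq2), a share near that of all genes. Neurl1a, an E3 ligase of the Neuralized family whose fly relative acts on Notch ligands, rose to 6.27 and 5.40 CPM in the deletion libraries, against 0.308 and 0.481 CPM in the controls (log2 fold change 3.87 ± 0.40, edgeR adjusted p = 0.00706). It was called under every alternative run (highest adjusted p = 0.0279), and antisense genes overlap it on the other strand. With 5 and 7 counts in the controls, Neurl1a passed the filter through the deletion libraries alone. Adam10, the protease that makes the first cut of an engaged Notch receptor and also sheds many other membrane proteins, rose to 52.9 and 60.0 CPM, against 30.4 and 31.9 CPM (0.86 ± 0.15, adjusted p = 0.0284). Dtx4, a Deltex ligase, rose to 13.1 and 19.1 CPM, against 6.35 and 7.15 CPM (1.25 ± 0.25, adjusted p = 0.0417). Without deletion replicate 2, 1 of the 40 was called. Adam10 lost its call without deletion replicate 1 (0.0593) or 2 (0.135) and Dtx4 without deletion replicate 2 (0.211), and both with a replicate block (0.0752 and 0.0744). Dtx4 also lost it with limma-voom (0.0556). Nrarp, a direct Notch target, had 6 and 5 counts in the deletion libraries against 9 and 11 in the controls.

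Markers of bile duct cells, the fate that Notch favours, were split. Of the 10 markers tested, 3 rose, where 4.41% of all tested genes were called higher. Sox9, a duct and progenitor factor, rose to 13.2 and 12.3 CPM in the deletion libraries, against 3.89 and 3.37 CPM in the controls (1.81 ± 0.23, edgeR adjusted p = 0.0124). Spp1 rose 31.5-fold, and Cldn4 had 14 and 29 counts in the deletion libraries against 2 and 1 in the controls (adjusted p = 0.0491). Cldn4 passed the filter through the deletion libraries alone, and it lost its call with DESeq2 (0.0514), limma-voom (0.0659) and a replicate block (0.107), and without deletion replicate 1 (0.0745), deletion replicate 2 (0.254) or control replicate 2 (0.0529). The duct keratins were not called: Krt7 had 0.714 and 1.80 CPM against 5.55 and 1.79 CPM, and Krt19 2.91 and 3.96 CPM against 39.2 and 3.23 CPM. The summed level of these markers was 1375 and 1979 CPM in the deletion libraries against 135 and 77.8 CPM in the controls, most of it Spp1. Without control replicate 1, 4 of the 10 were called higher and 0 lower, whereas without control replicate 2, 2 were higher and 3 lower, so the direction of the list turned on which control was kept. The part of duct cell content in the Notch2 and Hes1 values was not tested.

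Of 11 macrophage markers, 1 rose, Cd5l (edgeR adjusted p = 0.0499), where 4.41% of all tested genes were called higher and 2.16% lower. At an unadjusted p under 0.05, 7 were higher, against 2038 of all 14600 tested genes. All 11 markers had a positive log2 fold change (49.6% of all genes did), with a median of 0.60. Their summed level was 846 and 667 CPM in the deletion libraries against 415 and 551 CPM in the controls. For 8 of the 11, both deletion libraries were above both controls, against 28.7% of all tested genes. Cd5l lost its call with RLE scaling (0.0516), limma-voom (0.05004) and a replicate block (0.112), and without control replicate 1 (0.0816), deletion replicate 1 (0.179) or deletion replicate 2 (0.101). Without control replicate 2, 5 macrophage markers were called. The part of macrophage content in the Wnt and Notch values was not tested. Of 11 stellate cell and fibroblast markers, 1 fell, Ecm1 (-0.86), 3 were called without control replicate 2 and 0 without either deletion replicate, and the median was -0.08 (0.21 with library sizes alone). Jagn1, caught by its letters and without a role in Notch signalling, had 25.7 and 22.2 CPM in the deletion libraries against 28.0 and 33.7 CPM in the controls and was not called (-0.37 ± 0.17, edgeR adjusted p = 0.257).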

How the data were processed

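Per the labels' protocols, QuantSeq 3' libraries, which count fragments near the 3' end of each transcript, were sequenced on a NextSeq 550 (75 bp, single-end) and aligned with Bowtie2. Builds mm10 and GRCm38 are named in the submitters' processing notes. How reads were counted (program, strand setting, annotation) is not given in the sources used here. Raw counts per gene for 4 libraries were deposited by the authors. Symbols came from GENCODE M21 by identifier (52029 of 56953 rows matched). Of the 45 tested genes, 24 overlap another annotated gene, 20 of them on the other strand, and such counts are uncertain.

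The main test was that of edgeR 4.0.16 by quasi-likelihood (two-sided, TMM scaling, filterByExpr with a minimum count of 10, Benjamini-Hochberg over 14600 genes, call at an adjusted p under 0.05) in R 4.3.3. The fit had 2 residual and 4.14 prior degrees of freedom. CPM values are scaled by TMM, ± after a log2 fold change is its SE, and ± after a CPM value is the SD. Ratios of counts carry exact 95% counting intervals. Replicates differed beyond sampling noise (chi-square per degree of freedom 25.3 in the deletion and 38.9 in the control pair). DESeq2 1.42.0 and limma-voom 3.58.1, scalings, filters, blocks and left-out libraries were alternatives. The smallest exact permutation p for 2 against 2 is 0.333, so single values were not tested that way. The test script was checked on simulated data.

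Members and lists were chosen with earlier results of these data known. Named genes were those called, those with an absolute log2 fold change of 1 or more, those with a mean of 5 CPM or more, those under the filter with 10 or more counts, up to 4 called genes in each direction of a list, and 13 fixed genes. Other genes named were chosen after their values were seen, for their role. Promoter windows are RefSeq's on GRCm38.p6, for tested Wnt and Notch genes with an unadjusted p under 0.05. That of Nkd1 was left out because its RefSeq start lies 6279 bases from the M21 start. No window on chromosome 18 is shown, so that of Fzd8 is not reported here.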

Additional observations from a re-analysis of the deposited data

How the results depend on the processing

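Fzd8 kept its direction and call under every alternative run, and the count of Wnt and Notch genes called was 1 in all of them except library sizes alone (3), no filter on low counts (5) and single libraries left out (1 to 5). Over all genes, 959 calls became 1764 with library sizes alone (88.5% higher, against 67.2%), 2768 without a filter, 1647 with DESeq2, 390 with a replicate block and 428 to 1794 with a library left out. Over all fixed lists together, 22 calls became 55 without a filter, 36 with DESeq2 and 10 to 39 with a library left out. The replicate numbers share no stated litter or day, and deviations of same-numbered libraries correlated at -0.12. With the numbers crossed, an alternative chosen after seeing the data, 1366 genes were called. The block changed no call among the Wnt and Notch genes.

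Among 53 named genes, the 23 called ones kept their direction throughout, with 40 values losing a call and 16 gaining one. Library sizes alone moved the median of all genes to 0.29, and uncalled genes near 0 changed sign with that shift: Apc (0.22), Axin1 (0.28), Axin2 (0.0687), Dll1 (0.11), Fzd1 (0.12), Hes6 (0.0574), Lgr4 (0.17), Rbpj (0.11), Tcf7l2 (0.23), Wnt5b (0.26) and Znrf3 (0.0837). Axin1 was at 0.0013 without a filter, and Wnt5b at 0.18 with limma-voom, 0.134 with the replicate block and 0.130 with the crossed one. With a library left out, the range was -0.16 to 0.0212 for Apc, -0.12 to 0.0847 for Axin1, -0.52 to 0.0573 for Axin2, -0.51 to 0.26 for Dll1, -0.22 to 0.38 for Fzd4, -0.60 to 0.0108 for Fzd5, -0.18 to 0.22 for Fzd7, -0.52 to 0.0049 for Hes6, -0.34 to 0.13 for Lgr4, -0.25 to 0.66 for Lgr5, -0.33 to 0.60 for Notch1, -0.82 to 0.48 for Rnf43, -0.16 to 0.0280 for Tcf7l2, -0.63 to 0.98 for Wnt5b and -0.66 to 0.11 for Znrf3. The cause of the sign changes other than those with library sizes alone was not tested. A left-out library leaves a group with 1 sample, which is assumed to vary like the other group. Depth limits what can be said of the 34 Wnt and Notch genes that were not tested.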
